A study of Mus musculus and Acomys cahirinus with 84 samples.

Results

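The genes described here are 44 genes of the lysosome: peptidases, glycosidases, sulfatases, lipid hydrolases and cholesterol exporters, membrane proteins, subunits of the proton pump, and the transcription factors Tfeb and Tfe3. They were taken by symbol from a list, which was drawn up with earlier results of these data known. All 44 were found once in the mouse table, which holds 56980 gene identifiers, and once in the table of the African spiny mouse *Acomys cahirinus*, which holds 19818 gene names. The study measured polyA RNA in primary skin fibroblasts of C56BL6 mice, wild mice and *A. cahirinus*, a rodent of another genus, after gamma irradiation. In each population the groups at 24 h were untreated (0 Gy), 10 Gy and 20 Gy. The groups at 12 d were untreated (0 Gy), 10 Gy, 20 Gy and untreated passaged cells, and each of the 21 groups had 4 libraries, for 84 in all. No genotype, transgene, sex or age is given in the labels, and they do not say how untreated cultures were kept to 12 d or how often the passaged ones were split. The 4 replicate numbers of a population stand for 4 animals, each of which gave 1 library to every group.

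Lysosomes break down proteins, glycans and lipids with hydrolases that work at acidic pH, which a proton pump (the V-ATPase) maintains. Most of the soluble enzymes are tagged with mannose 6-phosphate in the Golgi and carried to the organelle by receptors, while proteins such as LAMP1 and LAMP2 coat its membrane. TFEB and TFE3 are basic helix-loop-helix factors that enter the nucleus when mTORC1 at the lysosome is less active, and they bind a word with the core CACGTG near many lysosomal genes. *Glb1* encodes the lysosomal beta-galactosidase, whose activity at a pH above its optimum is the usual stain for senescent cells, fibroblasts made senescent by radiation among them.

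The core CACGTG was searched in mouse promoters, from 250 bases before to 50 bases after the start of the Ensembl canonical transcript in build GRCm39. The word reads the same on both strands. It was found in 12 of the 44 member promoters (27.3%) and in 1701 of 21757 promoters of protein-coding genes (7.82%). The longer word TCACGTGA, which contains the core, was found in 3 member promoters (6.82%), those of Gla, Mcoln1 and Ctsb, and in 241 promoters of protein-coding genes (1.11%). A match is a description of the letters and not a bound site. The stretches below, upstream of members whose values are described later, are shown so that the word can be seen in place; each is written 5′ to 3′ on the gene's strand, and capitals mark the core.
Glb1 (chr9:114230068-114230133, plus strand, core 46 bases before the start): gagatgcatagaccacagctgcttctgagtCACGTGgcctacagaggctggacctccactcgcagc
Ctsd (chr7:141941776-141941839, minus strand, core 34 bases before the start): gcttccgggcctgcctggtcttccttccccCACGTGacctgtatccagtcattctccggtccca
Lamp1 (chr8:13209070-13209120, plus strand, first core 21 bases before the start): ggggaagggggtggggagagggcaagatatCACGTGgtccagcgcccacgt
Gaa (chr11:119158619-119158684, plus strand, core 64 bases before the start): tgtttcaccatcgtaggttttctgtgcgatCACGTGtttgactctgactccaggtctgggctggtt
Gla (chrX:133501913-133502011, minus strand, cores 77 and 44 bases before the start): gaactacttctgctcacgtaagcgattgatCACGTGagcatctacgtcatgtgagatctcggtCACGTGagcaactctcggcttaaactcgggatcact
The Lamp1 window held 4 cores, of which 3 reached or lay past the start and are not shown whole in its stretch. Stretches are shown only for members with a core wholly before the start. The core was also found in the windows of Arsa, Atp6v1h, Ctsb, Ctsf, Mcoln1, Naglu and Sgsh, where each reached or lay past the start. Members without the core in this window included Lamp2, Lgmn, Smpd1, Lipa and Tpp1, which are also described below, and the promoters of *A. cahirinus* were not analysed here.

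The C56BL6 libraries held 26.65 to 39.82 M counts, the wild ones 17.42 to 35.98 M and the *A. cahirinus* ones 25.55 to 52.86 M. Collagen genes that mark fibroblasts were high in every library, while the fibroblast markers Dcn, Lum and Fap had medians of 11.9, 0.44 and 0.37 CPM (counts per M counts of the scaled library) over the 56 mouse libraries. The defining macrophage markers Ptprc, Adgre1 and Tyrobp did not exceed 1.16, 0.204 and 0.381 CPM in any library. Others of the 9 macrophage markers were present in the mouse libraries: Csf1r at 4.66 to 44.4 CPM, Cd14 at 1.11 to 14.02 CPM and Lyz2 at 0.66 to 29.2 CPM. Keratinocyte markers summed to 205 to 882 CPM in the 7 libraries of C56BL6 animal 1 and to at most 5.16 CPM in the 21 libraries of the other C56BL6 animals. Among the mouse libraries, that of wild animal 1 at 24 h and 10 Gy stood apart in the number of genes detected, with 17843. It also had the fewest counts of all libraries, 17.42 M. In the 12 d series the summed fibroblast markers were 26654 to 48941 CPM in untreated C56BL6 libraries and 8035 to 12177 CPM at 20 Gy. The wild libraries had 10541 to 81987 CPM against 7816 to 25409 CPM, with 28628 to 32949.5 CPM against 18284 to 29139 CPM in *A. cahirinus*. Summed macrophage markers were 2.43 to 48.3 CPM over all libraries, endothelial markers at most 29.8, melanocyte markers at most 3.88 and adipocyte markers at most 100.3 CPM. All 24 h libraries carry one batch label and all 12 d libraries another, so no level at 24 h was compared with a level at 12 d.

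Per kilobase of gene model, Psap, which encodes the precursor of the saposins, had the highest level of the members in untreated 12 d cells of all 3 populations, at 587 ± 136 CPM per kb (SD, n = 4) in C56BL6 cells, 668 ± 91 in wild cells and 295 ± 20.2 in *A. cahirinus*. Lamp1 came next in each population, at 321 ± 29.8, 306 ± 52.3 and 218 ± 34.4 CPM per kb. The libraries' Psap and Lamp1 levels per kb did not overlap in any of the 3 populations. These levels and ranks depend on the length of the gene models, which differed between mouse and *A. cahirinus*. The lengths were 2744 against 2738 bases for Psap, 2675 against 2235 for Lamp1, 6051 against 4464 for Ctsb and 5438 against 1495 for Npc2. Glb1 lay near the middle of the members, at 39.4 ± 3.47 CPM per kb in C56BL6 cells, 34.9 ± 5.29 in wild cells and 26.4 ± 4.82 in *A. cahirinus*. Tfeb was among the lowest, at 1.66 ± 0.225, 2.36 ± 0.249 and 1.3 ± 0.164 CPM per kb. Ctss, a cathepsin best known from antigen-presenting cells, had at most 9 counts in any mouse library and 11 to 119 counts in the *A. cahirinus* libraries. Ctsz, a carboxypeptidase, had at least 4685 counts in every mouse library and 0 or 1 count in every *A. cahirinus* library. Each of these 2 genes was filtered out of the comparisons within the populations where it was near 0, so 43 of the 44 members were tested in each comparison within a population.

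A member is said to have risen or fallen where its adjusted p was under 0.05 in edgeR's quasi-likelihood test, fitted over all genes with 4 libraries against 4. Because replicate numbers name animals, the same test with the animal as a block is given beside the counts. Changes are log2 fold changes with their standard error (SE). In RNA from whole cultures, fewer cells of a type and less RNA per cell cannot be told apart.

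At 24 h 0 members were called in mice without the block. Those called in mice with it, and those called in *A. cahirinus* with either fit, were all higher after irradiation. After 20 Gy, 4 of 43 members rose and 0 fell in *A. cahirinus*, where 3.59% of all genes tested were called, and the members' median change was 0.19 against 0.03 over all genes. With the animal as a block, 23 rose and 0 fell, beside 24.1% of all genes called. The 4 were Arsa, the sulfatase that acts on sulfatides, Gaa, the acid alpha-glucosidase that degrades glycogen, Naglu, a heparan sulfate glycosidase, and Ctsa, a carboxypeptidase that also protects beta-galactosidase. None of the 4 kept its call when animal 1, animal 3 or animal 4 was left out, where 8, 3 and 247 of all genes were called.

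Arsa measured 75.9, 65.1, 63.8 and 61.1 CPM in the 4 untreated *A. cahirinus* libraries and 103.3, 93.6, 102.03 and 87.1 CPM at 20 Gy. The groups did not overlap, and the change was 0.56 ± 0.09, adjusted p = 0.0138. Gaa measured 92.3, 74.9, 88.3 and 84.1 CPM and, at 20 Gy, 102.3, 111, 114 and 109.3 CPM, a change of 0.38 ± 0.08, adjusted p = 0.0309. Every irradiated library lay above every untreated one. Naglu went from 12.8, 13.6, 11 and 12.6 CPM to 15.2, 20.5, 17.7 and 18 CPM, a change of 0.53 ± 0.12, adjusted p = 0.0455. Ctsa went from 144 ± 3.70 to 171 ± 7.11 CPM (SD, n = 4 in each group), with 0.27 ± 0.06, adjusted p = 0.04995. Members called only with the block included Glb1 (0.18 ± 0.06, adjusted p = 0.0422), Lamp1 (0.30 ± 0.05, adjusted p = 0.00135) and Ctsk, a collagen-degrading cathepsin (0.61 ± 0.12, adjusted p = 0.0046). The 10 Gy cells, set against the same untreated libraries, gave 2 members that rose, Arsa and Idua, and 0 that fell beside 3.73% of all genes, and with the block 25 that rose and 0 that fell beside 27.6%. The count at 10 Gy was 1 without animal 2 (889 of all genes) and 0 without any one of the others. Without animals 1, 3 and 4 in turn, 0, 0 and 328 of all genes were called.

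In C56BL6 mice at 24 h, 0 of 43 members were called at 20 Gy (0.0895% of all genes) and 0 at 10 Gy (0.007%). At an unadjusted p under 0.05 were 4 and 1 members, beside 1426 of 14526 and 1116 of 14280 genes. DESeq2 called 1 and 0 members, beside 269 and 149 genes. With the block the calls were 4 members higher at 20 Gy (17.6% of all genes) and 1 higher at 10 Gy (11.5%). The 4 were Ctsd, the aspartic protease cathepsin D (0.31 ± 0.05, adjusted p = 0.00144), Ctsf (0.37 ± 0.08, adjusted p = 0.00445), Man2b1 (0.30 ± 0.06, adjusted p = 0.00218) and Fuca1, the alpha-fucosidase (0.27 ± 0.05, adjusted p = 0.00176). In wild mice 0 members were called at 20 Gy (0% of all genes) and 0 at 10 Gy (0%). Before adjustment 2 and 1 members had p under 0.05 in edgeR's test, beside 856 of 14473 and 603 of 14412 genes. DESeq2 called 0 members at both doses, though it called other genes at each. The members' medians were 0.10 and 0.08, against 0.01 and 0.03 over all genes. With the block, 6 rose at 20 Gy (12.5% of all genes): those same 4 genes together with Ids and Npc2. At 10 Gy, 0 were called with the block as well (0%), with 3 at an unadjusted p under 0.05, beside 1564 of 14412 genes. Without animal 1, whose 10 Gy library had the fewest genes detected in mice, the count without the block was again 0, as over all genes.

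**Figure D1:**
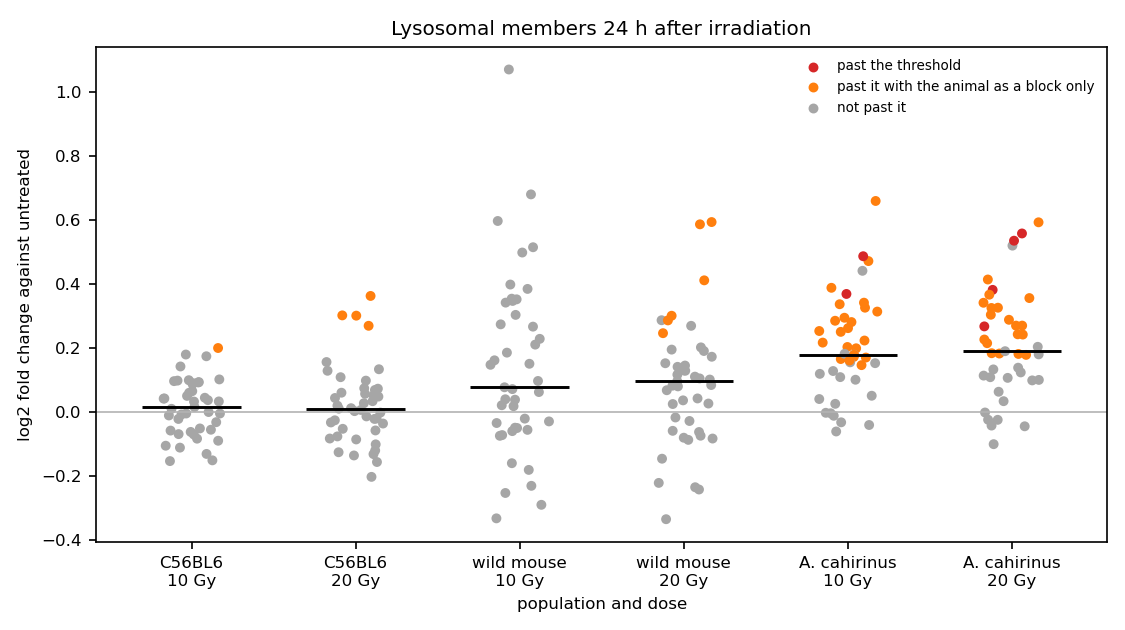
Log2 fold change of each tested member 24 h after 10 or 20 Gy against untreated cells of the same population (4 libraries against 4). Each point is 1 member, bars mark the members' median, and colour shows whether the change passed the threshold in the fit without and with the animal as a block; the medians are 0.18 and 0.19 for *A. cahirinus*, 0.08 and 0.10 for wild mice and 0.02 and 0.01 for C56BL6 mice.

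At 12 d after 20 Gy, more members fell than rose in C56BL6 mice. Against untreated cells 3 of 43 members rose and 15 fell, where 26.5% of all genes tested were called, and the members' median change was -0.12 against -0.01 over all genes. With the block 10 rose and 20 fell, beside 47.5% of all genes. The count was 4 without animal 3 (1092 of all genes) and 10 without animal 4 (1619). Naglu, Manba, Arsa and Lgmn were called whichever animal was left out. The fibroblast marker sums given above were lower at 20 Gy in the same libraries. Summed adipocyte markers were also lower in every animal, at 10.7 to 45.7 CPM in untreated and 3.49 to 13.4 CPM in 20 Gy cells, and the part of either in these changes was not tested. Without animal 1, whose libraries held the keratinocyte markers, the count was 25 (6087 of all genes).

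Among the C56BL6 peptidases, Ctsb, Ctsf, Ctsz and Lgmn fell and 0 rose. Lgmn, the asparaginyl endopeptidase that matures several cathepsins, measured 183, 189, 259 and 233 CPM in untreated cells and 89.7, 111, 127 and 129 CPM at 20 Gy. The highest irradiated library was below the lowest untreated one, and the change was -0.89 ± 0.15, adjusted p = 0.00528. Ctsf, a cysteine cathepsin, measured 50.5, 59.6, 84.8 and 84.5 CPM and 32, 38.7, 41.6 and 43.2 CPM, a change of -0.82 ± 0.19, adjusted p = 0.015. Ctsb, a cysteine cathepsin found in most tissues, went from 1409.6 ± 198 to 963 ± 57.9 CPM (SD, n = 4 in each group), with -0.52 ± 0.13, adjusted p = 0.0222. Ctsd went the other way, from 501, 705, 569 and 579.5 CPM to 699, 784, 665 and 616 CPM. It was higher in all 4 animals but the groups overlapped, and it passed the threshold only with the block (0.27 ± 0.09, adjusted p = 0.0449, against an adjusted p of 0.161 without it).

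Of the 11 glycosidases, 2 rose and 4 fell. Glb1 was one of those that fell: it measured 108.8, 111, 124 and 130.2 CPM in untreated cells and 78.4, 84.1, 86.2 and 87.4 CPM at 20 Gy. The groups did not overlap, and the change was -0.47 ± 0.08, adjusted p = 0.00498. Naglu (-0.51), Neu1, the lysosomal sialidase (-0.51), and Manba, the beta-mannosidase (-0.41), were the others. Gla, the alpha-galactosidase A lacking in Fabry disease, measured 15.7, 17.1, 15.1 and 15.8 CPM in untreated cells and 19.4, 25.9, 28.2 and 24.5 CPM at 20 Gy. It rose by the most of the members called, at 0.65 ± 0.12, adjusted p = 0.00601. Man2b1, the alpha-mannosidase, went from 80.2, 81, 89 and 81 CPM to 108.99, 107.9, 95.3 and 92.9 CPM, with 0.32 ± 0.08, adjusted p = 0.0198; its groups did not overlap.

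Both arylsulfatases fell in C56BL6 mice. Arsa measured 152, 165, 172 and 172 CPM in untreated cells and 77.8, 89.7, 104.5 and 100.5 CPM at 20 Gy, a change of -0.80 ± 0.10, adjusted p = 0.00179. Arsb changed by -0.42 ± 0.06. Lipa, the acid lipase that frees cholesterol from its esters, and Grn, the precursor of granulins, fell by 0.35 and 0.38, and the other 6 of the 8 genes of lipid hydrolysis, cholesterol export and granulin were not called. Lamp2, which is needed for chaperone-mediated autophagy and lysosome fusion, had the largest fall of all members called: it measured 638, 721, 951 and 1003 CPM in untreated cells and 373, 412, 454 and 456 CPM at 20 Gy, a change of -0.94 ± 0.16, adjusted p = 0.00548. Cd63, a tetraspanin of late endosomes, changed by -0.71 ± 0.18, adjusted p = 0.0242. Lamp1 instead went from 834, 939, 907 and 760.1 CPM to 979, 1015, 1059 and 934 CPM and passed the threshold only with the block (0.25 ± 0.07, adjusted p = 0.0301). Of the proton pump members Atp6v1h, a regulatory subunit of its cytosolic part, rose: it measured 71.4, 84.4, 71.9 and 67.3 CPM and 107.99, 113, 112 and 95.2 CPM, with 0.57 ± 0.09, adjusted p = 0.0039. Tfeb mRNA fell, from 11, 9.71, 7.96 and 8.91 CPM to 6.96, 6.53, 4.87 and 6.27 CPM (-0.58 ± 0.16, adjusted p = 0.0323), and Tfe3 was not called (0.12 ± 0.07, adjusted p = 0.257).

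In wild mice at 12 d after 20 Gy, 0 of 43 members were called without the block, where 0.0694% of all genes were called. At an unadjusted p under 0.05 were 11 members, beside 1984 of 14399 genes. DESeq2 called 4 members, beside 663 genes. With the block 1 rose and 8 fell, beside 15.4% of all genes. The members' median change was -0.13 against -0.01 over all genes. Fibroblast marker sums were lower at 20 Gy in all 4 wild animals, and their part was not tested. The values in this paragraph and the next are from the fit with the block. Lgmn measured 298, 283, 219 and 279.7 CPM in untreated cells and 166, 168, 142 and 142 CPM at 20 Gy, a change of -0.77 ± 0.10, adjusted p = 0.0069. Lamp2 measured 864, 1107, 671 and 717 CPM and 498, 564, 455 and 426 CPM, a change of -0.74 ± 0.13, adjusted p = 0.0134. Neither gene's groups overlapped.

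Manba in wild mice measured 17.1, 36.6, 21.1 and 20.4 CPM and 10.7, 24.2, 16.5 and 10.0 CPM. Animal 2 was the highest in both groups and the groups overlapped, but every animal was lower after 20 Gy (-0.63 ± 0.13, adjusted p = 0.0208). Ctsf measured 85.3, 94.3, 60.7 and 71 CPM and 54.9, 61, 53.3 and 50.3 CPM, lower in every animal with overlapping groups, a change of -0.46 ± 0.10, adjusted p = 0.0292. The member that rose was Atp6v1h, from 76.2, 86.5, 70.2 and 71.8 CPM to 108.7, 104.3, 93.6 and 109.2 CPM with no overlap (0.48 ± 0.09, adjusted p = 0.0183). The others that fell were Ctsk (-0.46), Neu1 (-0.43), Arsa (-0.46) and Tfeb (-0.43). Ctsd measured 399, 459, 760.3 and 321 CPM and 559, 609.7, 732 and 539 CPM. Animal 3 was the highest in both groups, and the change was not called (0.42 ± 0.15, adjusted p = 0.107). Lamp1 measured 763, 933, 932 and 646 CPM and 956, 1017, 1139 and 736 CPM with overlapping groups and was not called (0.26 ± 0.12, adjusted p = 0.197). Glb1 measured 97.7, 129, 99.4 and 94.5 CPM and 84, 97.8, 92.7 and 73.4 CPM; it was lower in all 4 animals after 20 Gy but was not called (-0.24 ± 0.09, adjusted p = 0.11).

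In *A. cahirinus* at 12 d after 20 Gy, more members rose than fell. Against untreated cells 13 of 43 rose and 2 fell, where 31.8% of all genes were called, and the median change was 0.22 against 0.003 over all genes. With the block 18 rose and 3 fell, beside 49.2% of all genes. The share of members called was near that of all genes. With RLE size factors in place of TMM 14 rose and 0 fell (4222 of 13462 genes called), and DESeq2 gave 16 and 0 (5163). The 2 that fell, Idua and Tpp1, had adjusted p = 0.0888 and 0.0752 with RLE size factors and 0.0565 and 0.0518 by DESeq2, and neither was called without animal 1, 3 or 4, nor Idua without animal 2. The count was 4 without animal 1 (1626 of all genes), 5 without animal 3 (1660) and 5 without animal 4 (2358). Ctsd, Ctsl, Lamp1 and Arsa were called whichever animal was left out. Fibroblast marker sums were 18284 to 29139 CPM at 20 Gy and 28628 to 32949.5 CPM in untreated cells. Summed endothelial markers were 2.69 to 3.99 CPM at 20 Gy and 0.314 to 1.01 CPM in untreated cells, with no overlap, and the part of either in these changes was not tested.

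Lamp1 rose most in *A. cahirinus*. It measured 502, 590.2, 426 and 432 CPM in untreated cells and 1013, 1152, 871 and 895 CPM at 20 Gy, about 2.02-fold higher (1.02 ± 0.15, adjusted p = 0.00167). Each irradiated library lay above all untreated ones. Lamp2, its partner in the lysosomal membrane, measured 154, 148, 149 and 133 CPM and 163, 179, 138 and 136 CPM and was not called (0.08 ± 0.11, adjusted p = 0.586). Cd63, Scarb2 and Mcoln1, the other membrane members, were not called either, with changes of -0.05, -0.02 and 0.16. In the proton pump Atp6v1h (0.47 ± 0.13, adjusted p = 0.0229) and the accessory subunit Atp6ap1 (0.37 ± 0.08, adjusted p = 0.0112) rose.

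Among lipid genes Smpd1, the acid sphingomyelinase, measured 116, 165, 106.7 and 119 CPM in untreated *A. cahirinus* cells and 206, 238, 183 and 191 CPM at 20 Gy, a change of 0.70 ± 0.15, adjusted p = 0.0104. Animal 2 was the highest in both groups, and the groups did not overlap. Lipa measured 92.8, 84.1, 63.8 and 76.8 CPM and 151, 98.2, 115 and 140.2 CPM, a change of 0.67 ± 0.16, adjusted p = 0.0153. Npc2, which hands cholesterol to NPC1 for export, rose by 0.51 ± 0.13, adjusted p = 0.0204. Asah1, the acid ceramidase, Psap and Ppt1 were not called, at 0.04, 0.13 and 0.16.

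Both Arsa and Ids, the iduronate-2-sulfatase lacking in Hunter syndrome, rose. Arsa measured 90.3, 97.1, 79.6 and 88.3 CPM in untreated cells and 144, 134, 135 and 146 CPM at 20 Gy, a change of 0.66 ± 0.08, adjusted p = 0.000973. Ids measured 109.8, 129, 99.6 and 106.2 CPM and 186, 211, 143 and 163 CPM, a change of 0.67 ± 0.14, adjusted p = 0.00787. Neither gene's groups overlapped. Of the glycosidases, Fuca1 (0.63), Gaa (0.43) and Neu1 (0.30) rose. Idua, the iduronidase that acts on the same glycans as Ids, fell from 36.9, 40.2, 34.5 and 38.1 CPM to 30.3, 32.1, 30.4 and 33.6 CPM, with -0.24 ± 0.08, adjusted p = 0.0473. Glb1 measured 58.9, 81, 55.2 and 59.9 CPM and 65, 77.1, 56.7 and 56.6 CPM, so that means were 63.8 CPM in both groups (0.01 ± 0.15, adjusted p = 0.983).

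Of the 10 peptidases tested in *A. cahirinus*, Ctsd and Ctsl rose and Tpp1 fell. Ctsd measured 312, 363, 291 and 308 CPM in untreated cells and 517, 485, 478 and 531 CPM at 20 Gy, a change of 0.66 ± 0.10, adjusted p = 0.00181. Ctsl, a cysteine cathepsin, measured 179.9, 159, 176 and 166 CPM and 298, 219, 266 and 284 CPM, a change of 0.65 ± 0.11, adjusted p = 0.00336. Tpp1, the tripeptidyl peptidase lacking in a form of Batten disease, measured 124, 137, 114 and 129 CPM and 94.8, 117, 91.1 and 94.7 CPM; it was lower in every animal although the groups overlapped (-0.34 ± 0.10, adjusted p = 0.0373). Lgmn, which had fallen in C56BL6 mice and, with the block, in wild mice, measured 108.9, 145, 102.3 and 101.7 CPM and 128, 136, 100.9 and 126 CPM. It was not called (0.11 ± 0.14, adjusted p = 0.602). Neither Tfeb (-0.06 ± 0.23, adjusted p = 0.857) nor Tfe3 (-0.19 ± 0.12, adjusted p = 0.256) was called.

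The 10 Gy cells at 12 d were set against the same untreated libraries as the 20 Gy cells, so their values stand beside those above and are not independent of them. In C56BL6 mice 2 members rose and 10 fell (20.9% of all genes called), and with the block 5 rose and 15 fell (38.8%). Lamp2, Ctsf and Lgmn changed by -0.89, -0.80 and -0.77, and Gla and Atp6v1h by 0.82 and 0.60. The C56BL6 count at 10 Gy was 6 without animal 2 (1092 of all genes), 1 without animal 3 (283) and 4 without animal 4 (912). In wild mice 0 members were called (0.264% of all genes), and with the block 0 rose and 8 fell (12.7%). Without the block 9 were at an unadjusted p under 0.05, beside 1763 of 14391 genes, and DESeq2 called 3, beside 600 genes. In *A. cahirinus* Ctsl alone rose and 0 fell (2.87% of all genes), and with the block 14 rose and 2 fell (27.5%), Lamp1 by 0.69 ± 0.08, adjusted p = 0.00207. The *A. cahirinus* count at 10 Gy was 5 without animal 2 (1393 of all genes) and 0 without any one of the others (0 of all genes).

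Cells given 20 Gy and cells given 10 Gy were compared directly as well. In C56BL6 mice 0 members were called (0% of all genes), and 0 with the block (0.297%). At an unadjusted p under 0.05 were 1 and 6, beside 301 and 2017 of 15463 genes, and DESeq2 called 0 members and 0 genes. In wild mice 0 were called (0%), and 0 with the block (0.257%). At an unadjusted p under 0.05 were 0 and 2, beside 37 and 1107 of 14770 genes, and DESeq2 called 0 members and 1 gene. In *A. cahirinus* 0 were called (0.457%), with 1 at an unadjusted p under 0.05 (1917 of 13564 genes) and 0 by DESeq2 (706 genes). With the block 5 were higher at 20 Gy (17.9%): Lamp1, Fuca1, Arsa, Ids and Lipa, by 0.34, 0.36, 0.38, 0.27 and 0.34. Without animal 2 the *A. cahirinus* count was 3 without the block, beside 1985 of all genes.

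**Figure D2:**
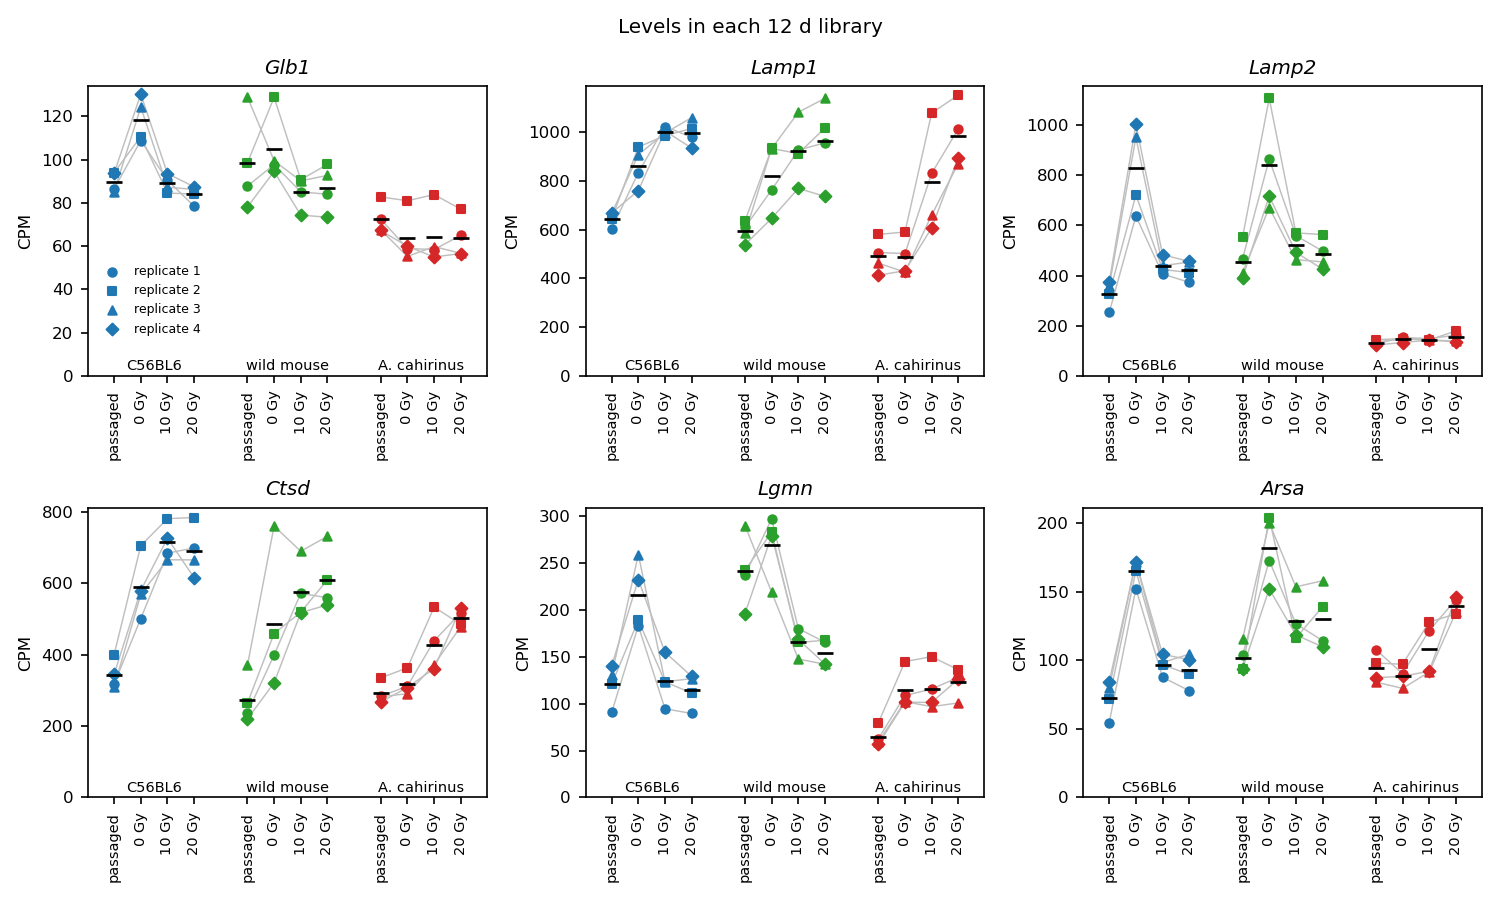
CPM of 6 members in each 12 d library, by population and group; symbols are the 4 animals of a population, grey lines join the libraries of 1 animal and black bars are group means. Lamp1 at 20 Gy lies between 871 and 1152 CPM in *A. cahirinus*, above its untreated libraries, while Lamp2 and Lgmn at 20 Gy lie below all untreated libraries in both kinds of mice and Glb1 does so in C56BL6 mice.

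Untreated cells themselves differed between the passaged and the unpassaged 12 d cultures in mice. In C56BL6 mice 32 of 43 members were lower in passaged than in untreated cells and 1, Tfe3, was higher, where 49.6% of all genes were called, and the counts were the same with the block (60.1% of all genes). The members' median difference was -0.70 against -0.02 over all genes. In wild mice 13 were lower and 0 higher (10.7% of all genes), and with the block 31 were lower and 0 higher (31.9%), with a median of -0.68. The wild count was 0 without animal 1 or animal 4 (0 of all genes), 3 without animal 2 (419) and 21 without animal 3 (2118). In *A. cahirinus* 2 lay higher and 5 lower (25.8%); with the block 7 were higher and 19 lower (49.5%), with a median of -0.09. That count was 0 without animal 1 (786 of all genes) or animal 3 (802), 17 without animal 2 (5039) and 3 without animal 4 (1394). Fibroblast marker sums were 13153 to 22897 CPM in passaged C56BL6 libraries, 24344 to 32811 CPM in wild and 18139.6 to 23507 CPM in *A. cahirinus*, below those of untreated libraries except that of wild animal 3, and their part was not tested.

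Ctsf showed the largest difference in both kinds of mice. It measured 9.97, 18, 17.4 and 19.6 CPM in passaged C56BL6 cells, all below the untreated libraries given above (-2.12 ± 0.25, adjusted p = 0.00058). In passaged wild cells it measured 17.7, 12, 23.7 and 15 CPM (-2.19 ± 0.23, adjusted p = 0.01). In *A. cahirinus* it measured 101.6, 128, 95.7 and 95.1 CPM, all libraries below the untreated one of the same animal (-0.42 ± 0.13, adjusted p = 0.0499). Tfeb was lower in passaged cells of C56BL6 mice, at 5.81, 5.17, 4.03 and 5.38 CPM (-0.89 ± 0.16, adjusted p = 0.00284), and of *A. cahirinus*, at 4.50, 4.82, 3.13 and 2.96 CPM (-1.0 ± 0.19, adjusted p = 0.00849). In wild mice it measured 7.77, 12.5, 10.9 and 10.1 CPM, and the difference was called only with the block (-0.40 ± 0.11, adjusted p = 0.0401). Lgmn was lower in passaged *A. cahirinus* cells (-0.85 ± 0.16, adjusted p = 0.00807), as were Npc2, Asah1 and Ctsf, whereas Man2b1 (0.50 ± 0.13, adjusted p = 0.0251) and Arsb were higher.

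Ctsk, the collagen-degrading cathepsin, measured in passaged *A. cahirinus* cells 3.60, 18, 4.29 and 2.28 CPM, against 14.4, 46.1, 20.5 and 16.3 CPM in untreated and 24.5, 63.4, 27.7 and 14.6 CPM in 20 Gy cells. Animal 2 was the highest in all 3 groups, every animal was lower in passaged than in untreated cells, and the difference was called only with the block (-2.05 ± 0.20, adjusted p = 0.000122, against an adjusted p of 0.0865 without it). Passaged wild cells measured 85, 56.9, 7.84 and 64.1 CPM, with animal 3 far below the others as it was in untreated wild cells, and passaged C56BL6 cells 48.5, 79.3, 67.9 and 75.8 CPM (-1.13 ± 0.17, adjusted p = 0.00139).

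Because the untreated and passaged controls differed, irradiated cells were also set against passaged cells, with which they share the 20 Gy libraries of the comparison above. More members were called higher than lower in 20 Gy cells in each population. In C56BL6 mice 33 of 43 members lay higher and 2 lower (41.6% of all genes called); with the block 35 were higher and 2 lower (56.1%), with a median of 0.48. The count was 23 without animal 3 (3975 of all genes). In wild mice 11 lay higher and 1 lower (10.5%); with the block 31 were higher and 1 lower (38%), with a median of 0.45. The wild count was 0 without animal 1 or animal 4 (0 of all genes) and 2 without animal 2 (246). In *A. cahirinus* 20 lay higher and 3 lower (42.5%); with the block 25 were higher and 4 lower (56%), with a median of 0.37. That count was 9 without animal 1 (2677 of all genes), 11 without animal 3 (3024) and 9 without animal 4 (3457). With RLE size factors 1 member and not 2 was lower in C56BL6 cells. Fibroblast marker sums were lower at 20 Gy than in passaged cells in all 4 C56BL6 and all 4 wild animals and higher in all 4 of *A. cahirinus*. Their part was not tested.

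Members that rose in all 3 populations against passaged cells, without the block, were Ctsd, Ctsf, Gla, Fuca1, Smpd1, Npc2, Lamp1 and Atp6v0d1. Ctsd was higher by 1.02 ± 0.11 in C56BL6 cells, by 1.19 ± 0.19 in wild cells and by 0.79 ± 0.10 in *A. cahirinus* cells. For Lamp1 the values were 0.64 ± 0.08, 0.72 ± 0.15 and 1.01 ± 0.14. Npc2 was higher by 0.86 ± 0.15, 0.85 ± 0.14 and 1.0 ± 0.13. Lgmn did not share this direction: it was lower than in passaged cells in wild mice (-0.62 ± 0.13, adjusted p = 0.0253), higher in *A. cahirinus* (0.94 ± 0.14, adjusted p = 0.00127) and not called in C56BL6 mice (-0.07 ± 0.16, adjusted p = 0.765). Manba and Gusb were lower in C56BL6 mice, and Tpp1, Idua and Arsb in *A. cahirinus*.

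Glb1, the source of the senescence stain, was not called higher at 20 Gy than in either control in any population at 12 d. It measured 86.4, 93.9, 85.1 and 93.7 CPM in passaged C56BL6 cells, 87.8, 98.4, 129 and 78.1 CPM in passaged wild cells and 72.4, 82.7, 67.5 and 67.2 CPM in passaged *A. cahirinus* cells. These libraries overlapped the 20 Gy libraries of the same population. Against them the 20 Gy cells of C56BL6 mice differed by -0.08 ± 0.06, adjusted p = 0.314, those of wild mice by -0.15 ± 0.17, adjusted p = 0.624 and those of *A. cahirinus* by -0.17 ± 0.12, adjusted p = 0.283. None of these differences was called with the block, and enzyme activity was not measured in these files.

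**Figure D3:**
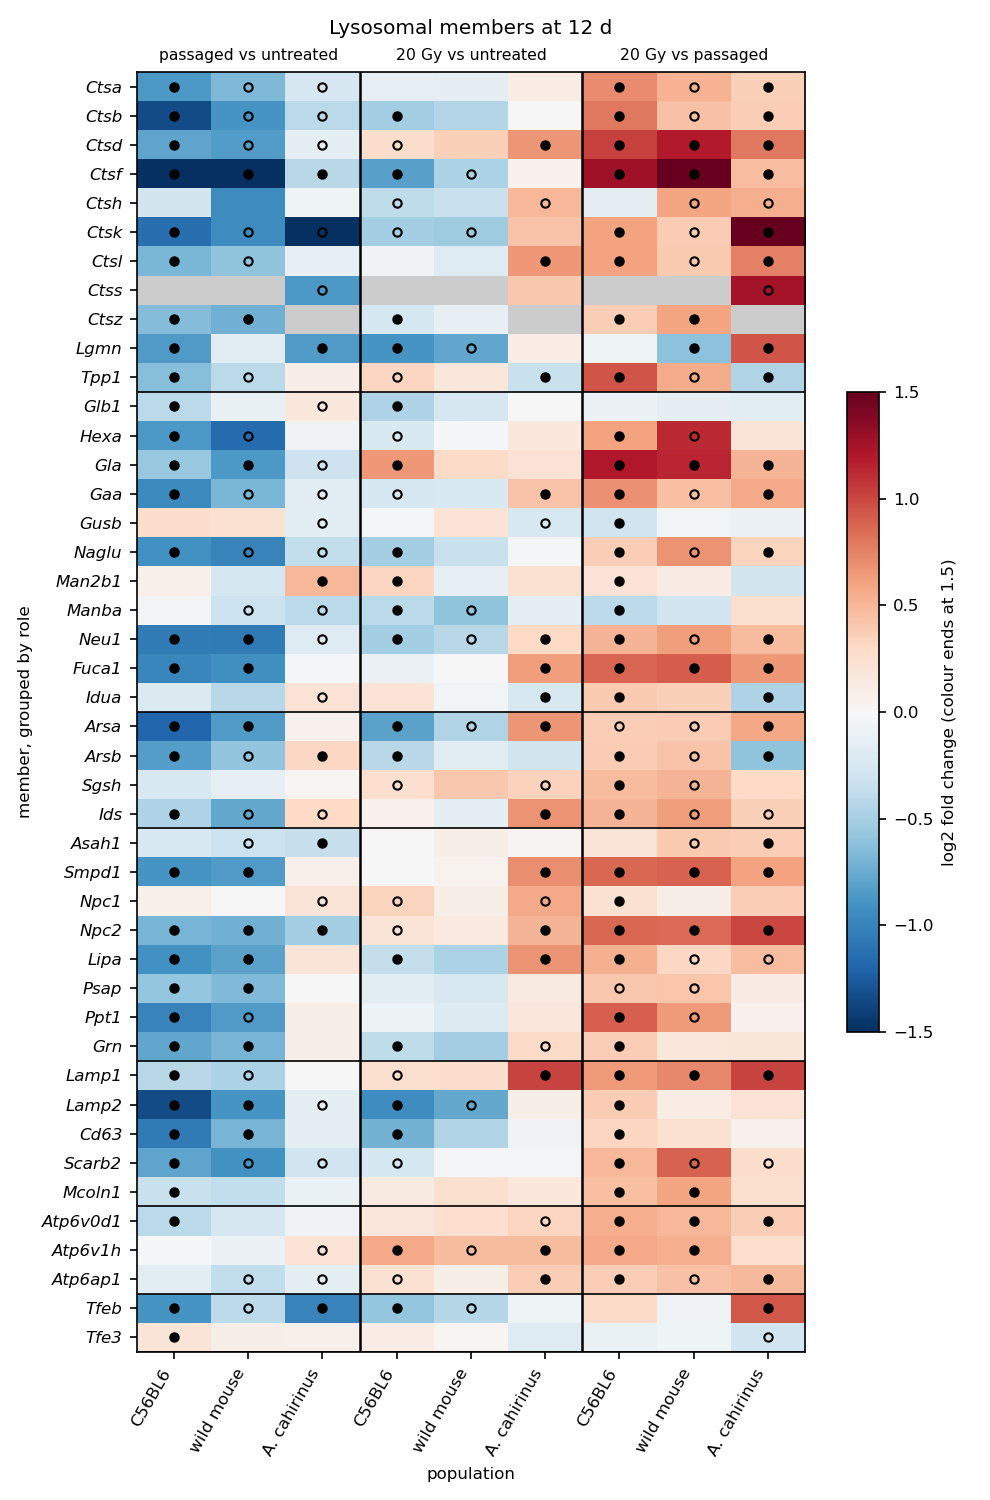
Log2 fold change of each member (rows, by role) in 3 comparisons at 12 d in each population, with colour ending at 1.5 and grey for members not tested. Filled circles mark members past the threshold and open circles members past it only with the animal as a block; comparisons of 1 population share libraries. Passaged cells are lower for 32 members in C56BL6 mice, and from untreated to 20 Gy cells the change is above 0 for 16 of 43 members in C56BL6 cells, 15 in wild cells and 32 in *A. cahirinus*.

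The change from untreated to 20 Gy cells was compared between populations as an interaction, so that only changes within a population are set side by side. Ctsz and Ctss, with hardly any counts on one side, were left out here, which leaves 42 members. At 12 d the change in *A. cahirinus* was above that in C56BL6 mice for 14 of 42 members and below it for 2, where 18.8% of all genes were called, and with the block for 21 and 3 (38.1%). The median difference of the members was 0.39 against -0.04 over all genes. The count was 10 without animal 1 of both populations (2121 of all genes), 3 without animal 3 (596) and 5 without animal 4 (907). Against wild mice the change was above for 5 members and below for 0 (3.23%), and with the block for 15 and 2 (23.5%), with a median of 0.37 against -0.04. That count was 0 without animal 1 (0 of all genes) or animal 4 (5), 8 without animal 2 (812) and 2 without animal 3 (163). The same *A. cahirinus* libraries enter both comparisons.

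Arsa differed most from C56BL6 mice: it fell in C56BL6 mice, rose in *A. cahirinus*, and the changes differed by 1.46 ± 0.13, adjusted p = 3.04e-05. Its difference from wild mice was 1.12 ± 0.18, adjusted p = 0.00779. Lipa, Lgmn, Grn and Neu1 were the other members called against both kinds of mice. Lipa differed by 1.03 ± 0.18, adjusted p = 0.00227 from C56BL6 mice and by 1.15 ± 0.23, adjusted p = 0.0209 from wild mice. Lamp2 differed by 1.02 ± 0.20, adjusted p = 0.00361 and 0.85 ± 0.22, adjusted p = 0.0511, the second called only with the block (adjusted p = 0.0033). For Lamp1 the differences were 0.77 ± 0.18, adjusted p = 0.00846 and 0.76 ± 0.24, adjusted p = 0.101, again with the second called only with the block (adjusted p = 0.00325). Tpp1 went the other way, at -0.66 ± 0.15, adjusted p = 0.00882 from C56BL6 mice. None of the 3 proton pump members was called in either comparison, with or without the block. For Glb1 the difference from C56BL6 mice was called only with the block (0.47 ± 0.09, adjusted p = 0.00212) and that from wild mice was not called (0.25 ± 0.11, adjusted p = 0.115).

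At 24 h the change at 20 Gy was above that of C56BL6 mice for 2 members, Arsa (0.62 ± 0.13, adjusted p = 0.0161) and Gaa (0.54 ± 0.11, adjusted p = 0.0175), and below it for 0 (2.08% of all genes called). With the block it was above for 15 and below for 0 (16.8%). The count without the block was 4 without animal 1 (207 of all genes). It was 0 when animal 2, 3 or 4 was left out (204, 0 and 148 of all genes). Against wild mice 0 were called (0% of all genes), with 4 at an unadjusted p under 0.05 (699 of 13591 genes) and 1 by DESeq2 (96 genes). With the block 6 were above and 0 below (7.4%).

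**Figure D4:**
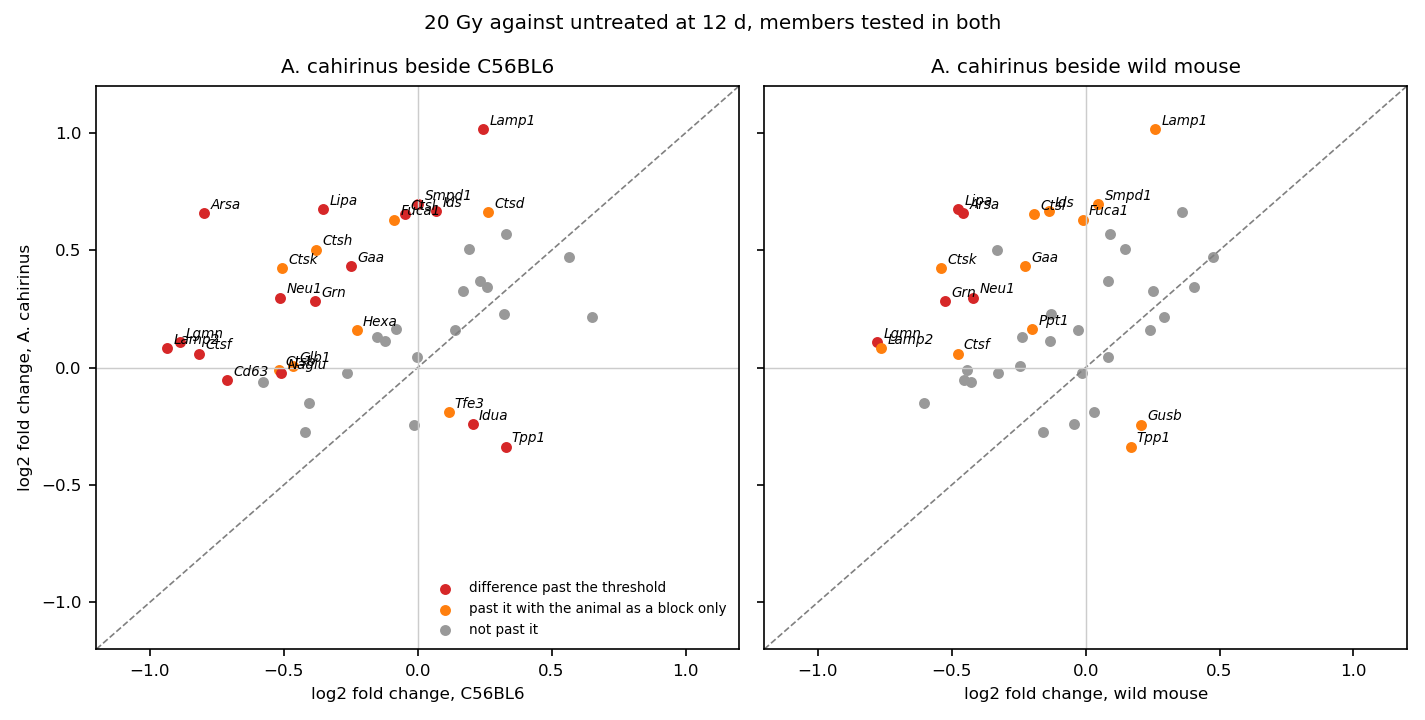
Log2 fold change from untreated to 20 Gy cells at 12 d in *A. cahirinus* (vertical) against C56BL6 mice (left) and wild mice (right), 1 point for each member tested in both; the dashed line marks equal change. Colour shows whether the difference between the populations passed the threshold in the interaction test, and Arsa, Lipa, Lgmn, Grn and Neu1 do so in both panels.

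Other genes of the pathway were taken from lists fixed by name and counted at 12 d after 20 Gy against untreated cells. All genes were called there at the shares given above, 26.5% for C56BL6 mice, 0.0694% for wild mice and 31.8% for *A. cahirinus*, or 47.5%, 15.4% and 49.2% with the block. At an unadjusted p under 0.05, without the block, were 1984 of 14399 genes in wild mice and 5843 of 13462 in *A. cahirinus*. Of the V-ATPase subunits outside the 44, 6 of 13 rose and 0 fell in C56BL6 cells, and 12 rose and 0 fell with the block. In wild cells 0 of 13 were called (edgeR gave 4 with p under 0.05 before adjustment), and 4 rose with the block. In *A. cahirinus* 10 of 12 rose and 0 fell with either fit. The subunits' median changes were 0.32, 0.24 and 0.47.

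Of 23 other lysosomal hydrolases, 1 rose and 6 fell in C56BL6 cells, with 4 and 10 under the block. In wild cells 0 were called (4 at an unadjusted p under 0.05), and 4 fell with the block. In *A. cahirinus* cells 4 rose and 2 fell, with 12 and 3 under the block. Their medians were -0.27, -0.08 and 0.23. Of 20 other lysosomal membrane proteins, 2 rose and 2 fell in C56BL6 cells (5 and 4 with the block). None of the 20 was called in wild cells (3 at an unadjusted p under 0.05), where 1 rose with the block, and 7 rose and 0 fell in *A. cahirinus* with either fit.

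Of 12 genes of mannose 6-phosphate sorting, 2 rose and 1 fell in C56BL6 cells (2 and 2 with the block). In wild cells 0 were called (0 at an unadjusted p under 0.05), and 1 fell with the block. In *A. cahirinus* 0 rose and 1 fell (2 and 2 with the block). Among the 24 autophagy genes 4 rose and 4 fell in C56BL6 cells (6 and 7 with the block), and 3 rose and 1 fell in *A. cahirinus* (10 and 2). In wild cells 0 of the 24 were called (6 at an unadjusted p under 0.05), and 3 rose and 1 fell with the block.

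Of the other TFEB family members and the genes of mTORC1 control, 3 of 15 rose and 1 fell in C56BL6 cells (6 and 1 with the block), and 3 of 15 rose and 1 fell in *A. cahirinus* (4 and 1). In wild cells 0 of 16 were called (1 at an unadjusted p under 0.05), and 1 rose with the block. Of the lysosomal protease inhibitors 1 of 4 rose and 1 fell in C56BL6 cells with either fit, and 0 of 4 were called in wild cells with either fit (0 at an unadjusted p under 0.05). In *A. cahirinus* 0 of 3 were called (1 at an unadjusted p under 0.05), and 2 rose with the block. In passaged against untreated cells, 16 of the 23 other hydrolases were lower and 1 higher in C56BL6 mice (17 and 1 with the block). All genes were called there at 49.6%, or 60.1% with the block. The counts were 9 lower and 0 higher in wild cells (16 and 1 with the block), and 6 lower and 1 higher of 22 in *A. cahirinus* (9 and 5). All genes were called at 10.7% in wild cells and 25.8% in *A. cahirinus*, or 31.9% and 49.5% with the block. The *A. cahirinus* share of hydrolases called without the block was near that of all genes.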

How the data were processed

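PolyA RNA of 84 libraries was sequenced as stranded mRNA libraries, per the labels' protocols. The values used are raw counts per gene, deposited by the authors in one table for the mouse libraries and one for *A. cahirinus*. Per the file headers, reads were counted with featureCounts 2.0.3 against GRCm39 with Ensembl 108 genes, or against the *A. cahirinus* assembly AcoCah2 by gene name, with no strand option, so overlapping or antisense genes cannot be told apart. Trim Galore and HISAT2 are named in the submitters' processing notes. The deposited gene length, in bases, served only for levels per kilobase. Of the mouse identifiers, 56236 of 56980 were matched to a symbol.

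Genes were filtered with filterByExpr, scaled by TMM and tested with edgeR 4.0.16 (R 4.3.3, glmQLFit and glmQLFTest), using only the groups compared. Each p-value was adjusted by Benjamini-Hochberg over all genes tested, with a threshold of 0.05 and two-sided tests. The standard error is the log2 fold change divided by the root of the F statistic. Differences between populations are interaction terms over 18109 symbols found once in each table, so species differences in gene models cancel only as far as they act alike on both groups. The 25 comparisons comprise 21 within and 4 between populations. CPM are counts per M counts of the TMM-scaled library. Without that scaling, 3 counts correspond to 0.0568 to 0.172 CPM, a limit that takes only counting error into account. Library names give each replicate number 1 animal code, so numbers pair libraries: deviations from the group means correlated at 0.56 to 0.78 on average between groups for the same number (lowest pair 0.33) and at -0.26 to -0.15 for different numbers. Alternatives were the replicate block, RLE size factors, no filter, DESeq2 1.42.0 and leaving out each replicate number. The fits were also run on counts simulated independently for each library. Those counts held no differences between animals, so they cannot show how the fits deal with the pairing.

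The members, gene lists and cell type markers were chosen with earlier results of these data known. All 44 members could be named. Values in every library were given for a panel chosen by role and for the members with the largest called changes at 12 d after 20 Gy, and for some others chosen after their values were seen (Lamp2, Lgmn, Arsa, Ctsf, Man2b1, Naglu, Gaa, Ctsa, Ids and Idua among them). Mouse promoters were read from GRCm39 with GENCODE vM39 gene models. Tables were written with Python 3.11.15, pandas 2.3.3 and numpy 2.4.6.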

Additional observations from a re-analysis of the deposited data

Results flagged for a closer look

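In 5 of 86 sets of 4 libraries, 1 library lay far from the other 3 for its group by the gap to its nearest neighbour. Chance gives about 1 in 20 such sets. They were Man2b1 in untreated C56BL6 cells at 12 d (animal 3, 89.0 CPM), Glb1 in untreated wild cells at 12 d (animal 2, 129 CPM), Lgmn in untreated *A. cahirinus* cells at 12 d (animal 2, 145 CPM), Tpp1 in *A. cahirinus* cells 12 d after 20 Gy (animal 2, 117 CPM) and Ctsk in passaged *A. cahirinus* cells (animal 2, 18 CPM).

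The change from untreated to 20 Gy cells differed between *A. cahirinus* and mice for the following members by the interaction test of edgeR, given as log2 differences of *A. cahirinus* minus mouse. At 24 h against C56BL6 mice they were Gaa (0.54) and Arsa (0.62). At 12 d against C56BL6 mice the peptidases were Ctsf (0.88), Ctsl (0.70), Lgmn (1.0) and Tpp1 (-0.66). The glycosidases were Gaa (0.68), Naglu (0.49), Neu1 (0.81) and Idua (-0.45), and the sulfatases Arsa (1.46) and Ids (0.60). The lipid and granulin genes were Smpd1 (0.70), Lipa (1.03) and Grn (0.67), and the membrane proteins Lamp1 (0.77), Lamp2 (1.02) and Cd63 (0.66). At 12 d against wild mice they were Neu1 (0.72), Arsa (1.12), Lipa (1.15), Lgmn (0.89) and Grn (0.81).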

How the results depend on the processing

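No member called in the reported fit or with the replicate block changed sign under any alternative. Some members called in neither did, and members called only under another alternative were not checked for sign. With the replicate block, the calls rose from 0 to 4 (C56BL6, 24 h, 20 Gy), 0 to 1 (10 Gy), 18 to 30 (12 d, 20 Gy) and 12 to 20 (10 Gy). Calls over all genes rose as well, from 13 to 2563, 1 to 1646, 4010 to 7182 and 3107 to 5786. In wild mice the members' calls rose from 0 to 6 (24 h, 20 Gy), 0 to 9 (12 d, 20 Gy), 0 to 8 (10 Gy), 13 to 31 (passaged against untreated) and 12 to 32 (20 Gy against passaged). Those over all genes rose from 0 to 1816, 10 to 2224, 38 to 1824, 1497 to 4456 and 1510 to 5472. In *A. cahirinus* the block gave 23 and 25 calls at 24 h (20 and 10 Gy), 16 at 12 d (10 Gy), 5 (20 against 10 Gy) and 26 (passaged against untreated). These stood beside 3170, 3615, 3638, 2426 and 6431 of all genes. The block gave 15 and 6 calls for *A. cahirinus* against C56BL6 and wild mice at 24 h, and 17 against wild mice at 12 d, beside 2282, 1006 and 3258 of all genes. DESeq2 gave 1 call (C56BL6, 24 h, 20 Gy), 19 (C56BL6, 12 d, 10 Gy), 4, 3 and 21 (wild, 12 d: 20 Gy, 10 Gy, passaged) and 8, 8, 4 and 12 (*A. cahirinus*: 24 h 20 Gy, 24 h 10 Gy, 12 d 10 Gy, passaged), and 1 and 9 against wild mice at 24 h and 12 d. Over all genes it called, in that order, 269, 4219, 663, 600, 2903, 1107, 1010, 1530, 4222, 96 and 1149. Without the expression filter there were 8 (wild, passaged), 2 and 1 (*A. cahirinus*, 24 h, 20 and 10 Gy) and 0 (12 d, 10 Gy), beside 765, 418, 451 and 198 of all genes. RLE scaling moved no total of calls by over 1.5 times, but members that fell went from 2 to 0 (*A. cahirinus*, 12 d, 20 Gy) and from 2 to 1 (C56BL6, 20 Gy against passaged).

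Leaving out 1 replicate number gave 4 to 25 calls (C56BL6, 12 d, 20 Gy), 1 to 17 (10 Gy), 26 to 34 (passaged) and 23 to 35 (20 Gy against passaged). Over all genes those ranges were 1092 to 6087, 283 to 5366, 4400 to 8531 and 3898 to 7527. The ranges were 0 to 21 and 0 to 13 for the last 2 comparisons in wild mice, and 0 to 2118 and 0 to 1894 over all genes. In *A. cahirinus* they were 0 to 3 and 0 to 1 at 24 h (20 and 10 Gy), 4 to 22 and 0 to 5 at 12 d, 0 to 3 (20 against 10 Gy), 0 to 17 (passaged) and 9 to 31 (20 Gy against passaged). Over all genes, in that order, they were 3 to 670, 0 to 889, 1626 to 6678, 0 to 1393, 0 to 1985, 786 to 5039 and 2677 to 8115. Between populations they were 0 to 4 (C56BL6, 24 h), 3 to 19 (C56BL6, 12 d) and 0 to 8 (wild, 12 d), beside 0 to 207, 596 to 2380 and 0 to 812 of all genes. The other comparisons stayed at 0 in each such fit, where at most 77 of all genes were called. Such fits hold fewer libraries, and the cause of the shifts in calls was not tested.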
